A study of Camellia sinensis with 12 samples.

Results

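MSTRG.9070 is a tea gene described as dehydrin xero 1, after a dehydrin of Arabidopsis. It was chosen by its counts, as the dehydrin with the most counts of any gene from 9 h of withering on, and it is 1 of the 52332 genes of the count table and 1 of 3 genes whose description holds the word dehydrin. Its counts, share of counts, rank and ratios to other genes therefore served to choose it and are given as a description with no test. Plucked shoots of Camellia sinensis cultivar Longjing43, each of 1 bud and 2 leaves, were kept at 25°C in a climate chest, and leaf RNA was sequenced after 0, 9, 15 and 24 h of withering in 3 libraries per time. The sample labels give a light intensity of 0 lux, and the study's methods describe a lit chamber. The 12 libraries include no unwithered leaves of the later times, so withering cannot be told apart from the time of day or the time since plucking. Nothing in the sources says that libraries of 1 time are separate lots of leaves. The spread between them, against which the p-values are set, may therefore be technical.

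Dehydrins are hydrophilic proteins of the late embryogenesis abundant (LEA) class. They build up in drying seeds and in leaves that lose water or are chilled, where they are thought to protect membranes and other proteins. In Arabidopsis and other plants their genes respond to abscisic acid (ABA), through factors that bind ABA-responsive elements, and to cold and drought through factors of the CBF and DREB family. Withering is the controlled loss of water from plucked tea leaves before further processing.

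The total count per library ranged from 64931031 to 118261728. Levels are given as the share of all counts of a library and as CPM, counts scaled to a library total that was first corrected by TMM (trimmed mean of M-values). The TMM factors were 1.21 to 1.24 at 0 h and 0.758 to 0.793 at 24 h, so CPM and share give different fold differences. The counts are not divided by gene length. Whether a level in whole leaves reflects fewer cells of a type or less RNA per cell cannot be told apart.

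MSTRG.9070 was already among the most abundant transcripts of fresh leaves and held more of the RNA at each later time. At 0 h it had 194923, 248479 and 197295 counts, or 0.278, 0.292 and 0.304% of all counts. At 9 h it had 2268158, 1634342 and 1576699 counts, or 1.92, 1.96 and 1.84%. The lowest 9 h library thus stood far above the highest 0 h library. At 15 h the counts were 2010843, 2015515 and 2415623, or 2.19, 2.30 and 2.68%, and at 24 h they were 3339633, 1831046 and 2548139, or 3.44, 2.74 and 3.07%. The shares of any pair of times did not overlap, but the highest share at 15 h (2.68%, replicate 3) lay close under the lowest at 24 h (2.74%, replicate 2). That 24 h library was also the smallest of its time, with a total of 66920678 counts. The widest Wilson 95% interval of a share was ± 0.0039 percentage points, which covers counting error only, so the spread between libraries set the precision.

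On the CPM scale, the mean level of MSTRG.9070 was 2381 ± 140, 17936 ± 624, 23991 ± 3350 and 40076 ± 5450 after 0, 9, 15 and 24 h (SD, n = 3). The fresh libraries gave 2236, 2392 and 2516 CPM and those of 9 h gave 18096, 18464 and 17247 CPM. Those of 15 h gave 21368, 22839 and 27765 CPM and those of 24 h gave 45387, 34497 and 40345 CPM. The replicates lay close together early, with a coefficient of variation of 5.89% at 0 h and 3.48% at 9 h, and further apart later, with 14% at 15 h and 13.6% at 24 h. The ratio of mean CPM to that of fresh leaves was 7.53-, 10.1- and 16.8-fold after 9, 15 and 24 h, which on the log2 scale is 2.91, 3.33 and 4.07. As shares of counts the ratios were 6.54-, 8.21- and 10.6-fold. By 9 h the gene had covered 71.5% of the log2 distance in CPM between 0 and 24 h. The later steps were smaller, with a ratio of 1.34-fold in CPM between 9 and 15 h and 1.67-fold between 15 and 24 h, and their size depended on the scaling, since in shares they were 1.25- and 1.29-fold. The plot of MSTRG.9070 by library shows both scales.

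**Figure D1:**
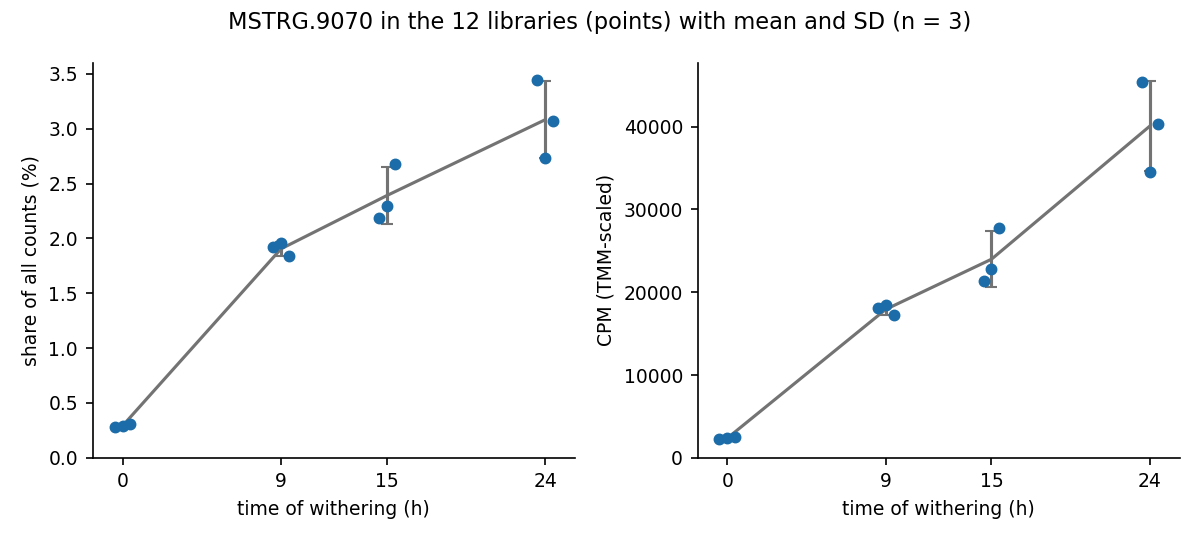
Share of all counts (%, left) and TMM-scaled CPM (right) of MSTRG.9070 against the time of withering (h), with 1 point per library and the mean and SD of 3 libraries per time as line and bars. The share stands at 0.278 to 0.304% at 0 h and at 2.74 to 3.44% at 24 h, and the points of any pair of times do not overlap.

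In rank, MSTRG.9070 moved from the 4th or 5th place to the top of every withered library. At 0 h it was 5th, 4th and 5th in replicates 1, 2 and 3, and its counts were 0.158 to 0.259 times those of MSTRG.12209, a small chain of rubisco, the enzyme that fixes carbon dioxide. In each of the 9 libraries from 9 h on it was 1st. The gene next to it changed with time. At 9 h this was a second dehydrin, MSTRG.44795, and MSTRG.9070 had 2.78 to 2.96 times its counts. At 15 h it was MSTRG.51524 (senescence-associated gene 21), which in Arabidopsis encodes a small LEA protein, with a ratio of 3.77 to 3.85. At 24 h it was the laccase gene MSTRG.10839, of a family of copper enzymes that oxidise phenolics, and the ratio narrowed to 1.99 to 2.51. Divided by the length of the locus in the table, introns included, MSTRG.9070 ranked 11th, 8th and 9th at 0 h and 1st in every later library.

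The genes around it at the top were largely exchanged. Rubisco small chain MSTRG.12209 stood at 1.55 ± 0.417% of counts at 0 h and 0.0829 ± 0.0044% at 24 h (SD, n = 3), and rubisco activase MSTRG.18095, which keeps rubisco in its active state, at 0.407 ± 0.0068% and 0.0136 ± 0.00099%. In their place came the laccase genes MSTRG.10839 and MSTRG.33660, at 0.0135 and 0.0054% at 0 h and 1.37 ± 0.011% and 0.628 ± 0.064% at 24 h. Metallothionein 2A (MSTRG.23235), a metal-binding protein, already held 0.240 ± 0.023% at 0 h and stood at 0.799 ± 0.075% at 24 h. MSTRG.51524 and MSTRG.9070 were the only genes among the 5 with the most counts at all 4 times. The share held by the 10 most abundant genes of a library was 4.20 ± 0.356% at 0 h and 9.16 ± 0.357% at 24 h, and of that gain of 4.97 percentage points MSTRG.9070 made up 2.79. The 10 most abundant genes other than MSTRG.9070 held 4.12, 3.57, 4.34 and 6.44% after 0, 9, 15 and 24 h.

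**Figure D2:**
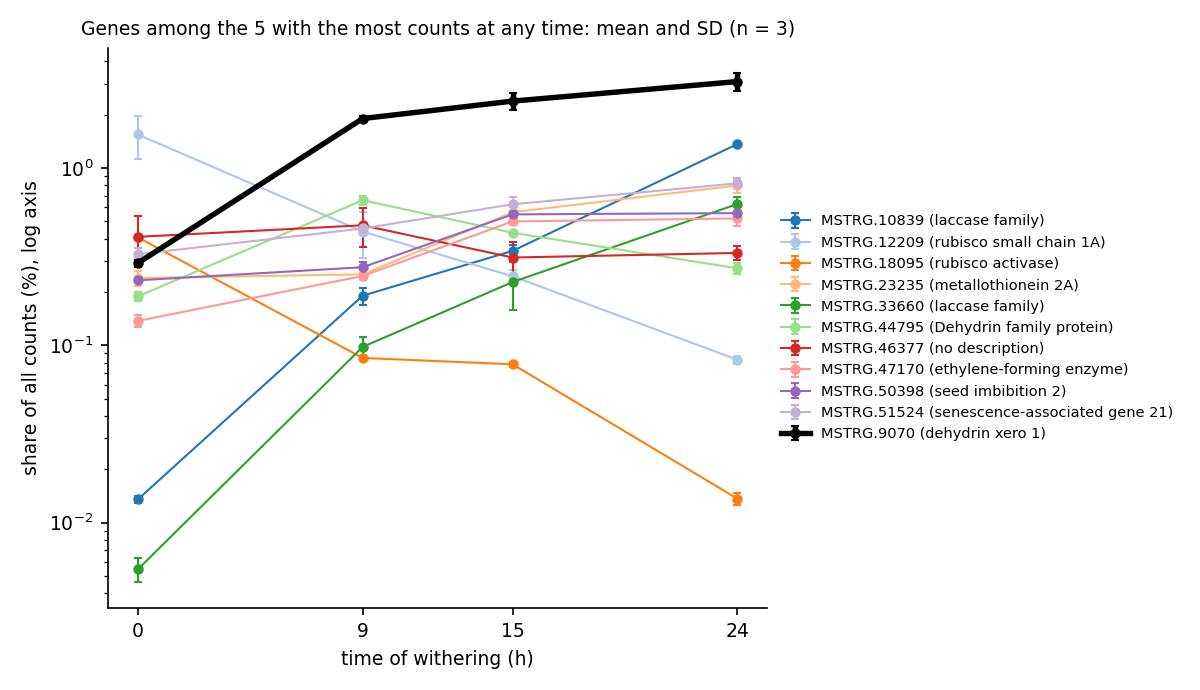
Mean share of all counts (%, log axis) against the time of withering (h) for the 11 genes that were among the 5 with the most counts at any time, with the SD of 3 libraries as bars. MSTRG.9070 (black) goes from 0.291% at 0 h to 3.08% at 24 h and is the highest line from 9 h on, while rubisco small chain and rubisco activase go down to 0.0829 and 0.0136%.

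MSTRG.9070 also had the largest gain in CPM over 0 h of all genes at each time, with 15555, 21610 and 37695 CPM at 9, 15 and 24 h. The next largest gains were 4661 CPM for MSTRG.44795 at 9 h, 3887 CPM for MSTRG.47170 (ethylene-forming enzyme, which makes the gaseous hormone ethylene) at 15 h and 17654 CPM for the laccase MSTRG.10839 at 24 h. Many rarer genes had a higher ratio, but none of similar level did. Of the 36 genes with a mean of at least 1000 CPM at 0 h, a limit set after the values were seen, MSTRG.9070 had the highest ratio of 24 h to 0 h (16.8-fold), followed by MSTRG.47170 (6.02-fold), MSTRG.23235 (5.28-fold) and MSTRG.51524 (3.99-fold).

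The other dehydrins differed from MSTRG.9070 in level and in time course. The table holds MSTRG.44795 (Dehydrin family protein) and MSTRG.35303 (dehydrin LEA) by that word, and 2 genes described as cold-regulated 47, the name of an Arabidopsis dehydrin that responds to cold and drought. Of these 2, MSTRG.44799 was measured and CSS005521 had no count in any of the 12 libraries. MSTRG.9070 lies on scaffold 1618 at 737076 to 738807 on the minus strand, MSTRG.44795 on scaffold 714 at 671100 to 673011 (plus), MSTRG.44799 on the same scaffold at 699467 to 701072 (plus), and MSTRG.35303 on scaffold 4496 at 976391 to 982180 (minus). The genome build of these coordinates is not given in the sources used here, and the table gives no exons. Scaffold 714 thus carries a pair of dehydrin genes on the same strand, 26.5 kb apart, whereas MSTRG.9070 is the only described dehydrin among the 53 genes of its scaffold. Reads that match more than 1 dehydrin gene could have been split between them, since the way of counting is not given.

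MSTRG.44795, the second most abundant dehydrin, peaked at 9 h. Fresh leaves had 1417, 1580 and 1637 CPM of it, and the 9 h libraries had 6502, 6294 and 5821 CPM. The 15 h libraries had 4205, 4226 and 4554 CPM and the 24 h libraries 3795, 3165 and 3655 CPM. The libraries of these 4 times did not overlap, with the 9 h libraries highest and the 0 h libraries lowest. It rose by 2.01 on the log2 scale between 0 and 9 h (SE 0.09, adjusted p = 7.47e-10, edgeR's quasi-likelihood test over 26712 genes, n = 3) and was still higher than at 0 h by 1.49 at 15 h (SE 0.09, adjusted p = 8.9e-09) and by 1.2 at 24 h (SE 0.09, adjusted p = 2.98e-08). After the peak it fell by 0.52 between 9 and 15 h (SE 0.08, adjusted p = 0.00031) and by 0.29 between 15 and 24 h (SE 0.08, adjusted p = 0.0101). The last step was not past the threshold with the size factors of DESeq2 in the same fit, where it was -0.20 with an adjusted p of 0.0520. MSTRG.44795 was 2nd by counts at 9 h and 6th at 15 h.

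MSTRG.44799, its neighbour on scaffold 714, shared the high level at 9 h and then diverged. Its mean was 234 ± 13.3, 612 ± 25.1, 81.3 ± 6.46 and 187 ± 26.2 CPM after 0, 9, 15 and 24 h (SD, n = 3). It rose by 1.39 on the log2 scale by 9 h (SE 0.10, adjusted p = 1.14e-07, edgeR's quasi-likelihood test), fell by 2.91 between 9 and 15 h (SE 0.11, adjusted p = 9.86e-10) and rose by 1.2 between 15 and 24 h (SE 0.10, adjusted p = 4.85e-07). Its log2 fold change against 0 h was -1.53 at 15 h (SE 0.10, adjusted p = 3.63e-08) and -0.32 at 24 h (SE 0.10, adjusted p = 0.0104), so it was lower than in fresh leaves at both times. The last value was -0.99 with library size as the only scaling. None of the other detected dehydrin genes was lower at 15 h than at 0 h.

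MSTRG.35303 was nearly undetected in fresh leaves and stayed rare. It had 0, 0 and 4 counts in the fresh libraries and 31, 15 and 26 in those of 9 h. It had 38, 67 and 61 counts in those of 15 h and 282, 270 and 301 in those of 24 h, so that every later library exceeded every fresh one. The mean at 24 h was 4.56 CPM, against 40076 CPM for MSTRG.9070. Per TMM-scaled total, the summed count was 15.9 times that at 0 h at 9 h (exact 95% counting interval 5.94 to 59.9), 41.5 times at 15 h (15.9 to 154) and 302.8 times at 24 h (117.8 to 1114). The gene passed the filter on low counts only through its libraries from 9 h on, so no test against 0 h is given for it. In edgeR's quasi-likelihood test it rose by 1.40 between 9 and 15 h (SE 0.48, adjusted p = 0.0347) and by 2.87 between 15 and 24 h (SE 0.47, adjusted p = 0.000164). The step from 9 to 15 h missed the threshold when any 1 of 6 libraries was left out, namely 9 h replicates 1, 2 and 3, 15 h replicates 2 and 3 and 24 h replicate 3, with adjusted p-values from 0.0554 to 0.117, and with library size as the only scaling (adjusted p = 0.0566).

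Both other genes described as dehydrin were thus higher than at 0 h at 9, 15 and 24 h, MSTRG.44795 by test and MSTRG.35303 by its counts alone. Of all genes tested, 27.1, 30.3 and 34.7% were higher at these times, so 2 of 2 is a small count beside a common outcome. Between 9 and 15 h, 1 of the 2 was higher and 1 lower, where 19.8% of all genes were higher and 18.1% lower. Between 15 and 24 h, again 1 was higher and 1 lower, with 25.9 and 30.8% of all genes. The dehydrin that went down at both later steps was MSTRG.44795 and the one that went up was MSTRG.35303. Relative to library size alone, TMM moved the log2 fold changes of all genes, and without it their median shifted by -0.20, -0.29 and -0.67 at 9, 15 and 24 h. No direction given here for a dehydrin flipped under that scaling.

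**Figure D3:**
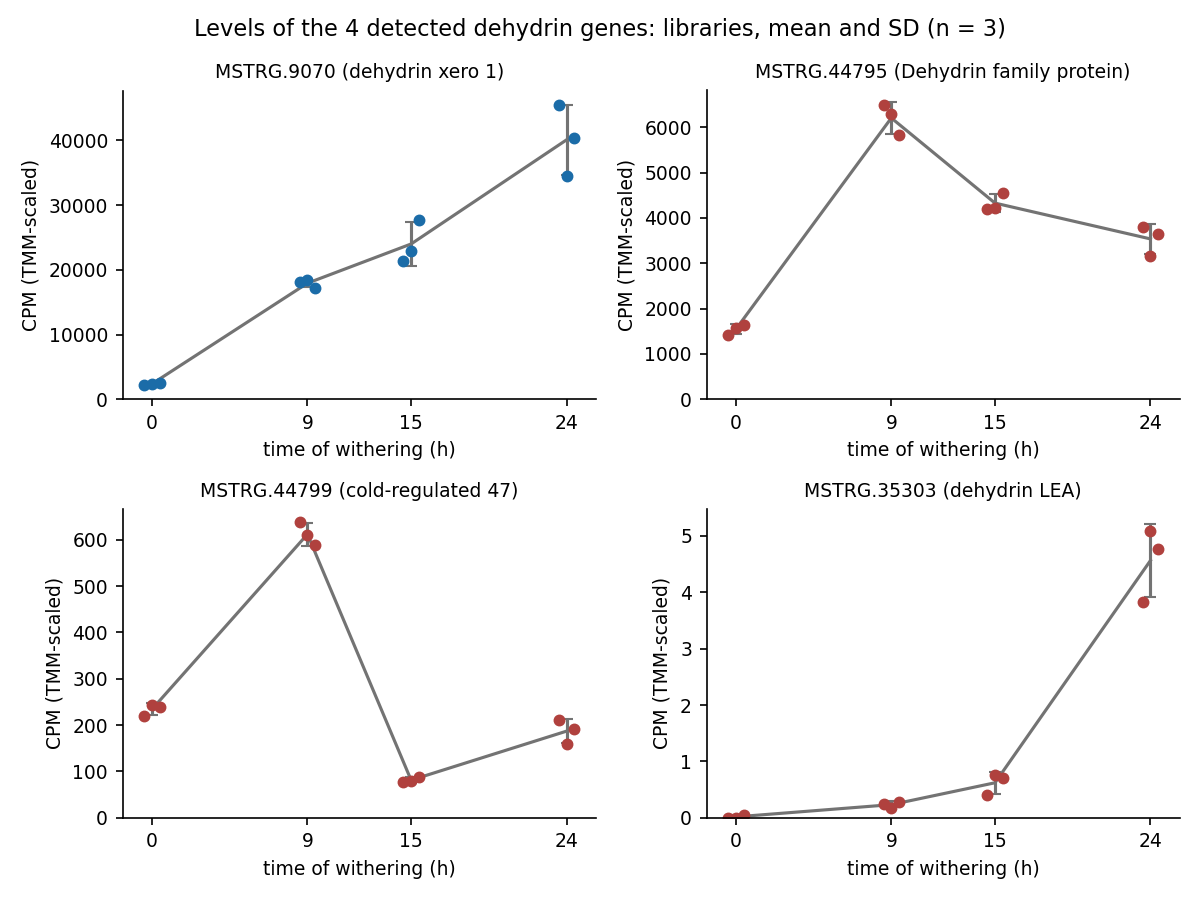
TMM-scaled CPM of MSTRG.9070 (blue) and of the other 3 detected dehydrin genes (red) against the time of withering (h), each panel with its own axis from 0, with 1 point per library and the mean and SD of 3 libraries as line and bars. MSTRG.9070 climbs to 40076 CPM at 24 h, MSTRG.44795 and MSTRG.44799 are highest at 9 h (6206 and 612 CPM), and MSTRG.35303 reaches 4.56 CPM.

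The dehydrin RNA of the leaf was accordingly more and more that of MSTRG.9070. Of the counts of the 3 genes described as dehydrin, MSTRG.9070 held 60.7 ± 0.50, 74.3 ± 0.65, 84.6 ± 1.19 and 91.8 ± 0.38% after 0, 9, 15 and 24 h (SD, n = 3). Its ratio to MSTRG.44795 went from 1.54 ± 0.032 in fresh leaves through 2.89 ± 0.097 and 5.53 ± 0.519 to 11.3 ± 0.577 after 24 h. These ratios are within a library and do not depend on the scaling. The spread between libraries at 24 h was smaller in the ratio (10.9 to 12) than in the CPM of MSTRG.9070, since both dehydrins were lowest in 24 h replicate 2. Per kilobase of locus the same ratio was 1.70, 3.19, 6.10 and 12.5 at 0, 9, 15 and 24 h. The ratio to MSTRG.44799 was 10.2 and 29.3 at 0 and 9 h, and 294 and 214 at 15 and 24 h, with its highest mean at 15 h, when MSTRG.44799 was lowest.

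Next to MSTRG.9070 on scaffold 1618 the annotated genes had few or no counts. The 3 nearest on one side, MSTRG.9069, MSTRG.9068 and MSTRG.9067, have no description, lie on the same strand 14.9, 16.4 and 17.8 kb away, and had summed counts of 0 at 0 h and 14, 62 and 116 at 24 h. MSTRG.9067 had no count before 24 h, and MSTRG.9068 had summed counts of 3 at 9 h and 6 at 15 h. Both passed the filter on low counts only through their 24 h libraries, so no test is given for them. MSTRG.9069 did not pass that filter. On the other side, 4.81 kb away on the opposite strand, CSS006324 (a kinase interacting family protein) had 8 counts in all at 24 h and 0 at the other times, and CSS006333 had 5 counts at 24 h. MSTRG.9053, described as basic leucine-zipper 44, a transcription factor, was the third gene on that side, 96.9 kb away. It had 48 to 92 counts at 0 h and 161 to 284 at 24 h. MSTRG.9053 rose against 0 h at 9, 15 and 24 h, by 1.74 (SE 0.28), 1.59 (SE 0.28) and 2.26 (SE 0.29) on the log2 scale, with adjusted p-values of 0.00017, 0.000312 and 9.9e-06 from edgeR's quasi-likelihood test.

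The time course of MSTRG.9070 was a common one in these leaves. Of 12637 described genes other than dehydrins with a mean of at least 10 CPM, 757 (5.99%) had a Pearson r of log2 CPM of at least 0.95 with it. This r was taken over the 12 libraries and is a description, since the libraries of a time share that time. Genes without a description were not compared. Among described genes other than dehydrins the highest r was 0.998, for MSTRG.29293 (protein kinase 2B), and the tenth highest was 0.996. The 10 include MSTRG.3358, a drought-responsive family protein, MSTRG.15801, a WSD1-like O-acyltransferase of the family that makes wax esters, MSTRG.2273, a glucosyltransferase of the hormone indole-3-acetate, and MSTRG.31912, an aluminium induced protein with YGL and LRDR motifs. The others were MSTRG.27397 (phosphoglycerate mutase family), MSTRG.13856 (pectin lyase-like), MSTRG.271 (amino acid transporter family), MSTRG.31640 (protein kinase) and MSTRG.1298 (unknown protein). A high r did not mean a ratio of like size. MSTRG.29293 went from 79.9 ± 1.5 to 238 ± 15.2 CPM between 0 and 24 h (SD, n = 3), and MSTRG.15801 from 161 ± 12.2 to 1122 ± 93.6 CPM. The order within the list was not stable, as 2 of the 10 remained with r of CPM, 0 with Spearman's rho and 0 over the 9 libraries from 9 h on.

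By distance between changes from the 0 h mean, which also counts their size, the nearest genes were MSTRG.1298 and MSTRG.46050, a LEA protein of group 6. The level of MSTRG.46050 was 13.4 ± 0.38, 90.3 ± 5.75, 123 ± 26.3 and 236 ± 4.84 CPM after 0, 9, 15 and 24 h. Its log2 ratio of 24 h to 0 h was 4.14, beside 4.07 for MSTRG.9070, which is how it was chosen. MSTRG.23775, a NAC transcription factor gene, was also among the 10 nearest and the most abundant of them, with 303 ± 6.26 CPM at 0 h and 6830 ± 652 CPM at 24 h. Another was MSTRG.17556, 4-coumarate:CoA ligase 2, an enzyme at the entry to flavonoid and lignin synthesis, with 53.7 ± 2.56 and 853 ± 116 CPM. Of the other dehydrins, MSTRG.35303 had an r of 0.918 with MSTRG.9070, MSTRG.44795 of 0.785 and MSTRG.44799 of -0.17, so the genes most like MSTRG.9070 in time course were not the other dehydrins.

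**Figure D4:**
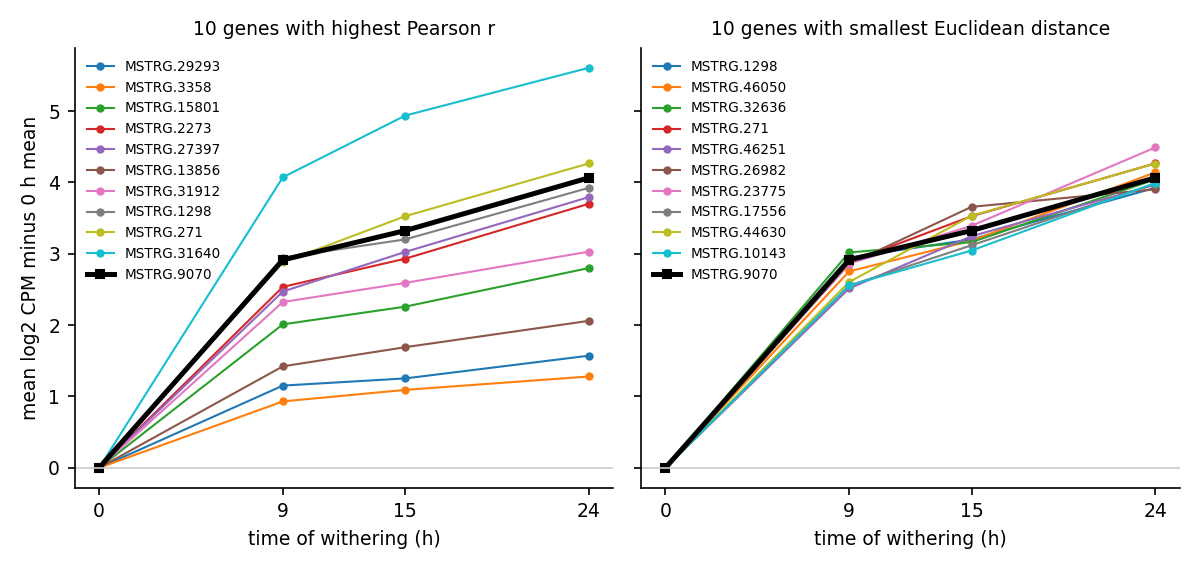
Mean log2 CPM minus the 0 h mean, against the time of withering (h), for MSTRG.9070 (black) and the 10 described genes other than dehydrins with the highest Pearson r (left) or the smallest distance (right). Genes of high r follow the shape of MSTRG.9070 at differences from 1.28 to 5.61 at 24 h, and those of small distance lie within 3.90 to 4.49.

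Of the other LEA proteins, which like dehydrins are hydrophilic proteins of drying tissue, 24 of the 38 genes in the table passed the filter on low counts. At 9, 15 and 24 h, 12, 13 and 12 of these were higher than at 0 h and 1, 3 and 2 lower, with a median log2 fold change of 1.41, 1.24 and 2.31, where the median of all genes tested was -0.02, -0.01 and -0.14. Of all genes 27.1, 30.3 and 34.7% were higher at these times, beside 50, 54.2 and 50% of the LEA genes. Lower were 26.8, 29 and 39.1% of all genes, beside 4.17, 12.5 and 8.33%. The summed share of the 38 genes was 0.0599, 0.147, 0.0841 and 0.0698% of counts at 0, 9, 15 and 24 h. It was thus highest at 9 h, although the median fold change was highest at 24 h. Of the 24 members tested, 4 had no count at 0 h. These passed the filter only through later libraries and could not be called lower, and the counts and percentages above include them. The medians were the same with these 4 set at their lower bound. MSTRG.7807, the member with the most counts, was highest at 9 h, as MSTRG.44795 was. Its level was 284 ± 27.7, 1083 ± 23.8, 502 ± 21.9 and 434 ± 59 CPM after 0, 9, 15 and 24 h (SD, n = 3), and it was higher than at 0 h at each time, though at 24 h the log2 fold change was -0.057 with library size as the only scaling. MSTRG.36202 rose from 0.185 ± 0.084 to 26.7 ± 6.6 CPM at 24 h, by 7.12 on the log2 scale (SE 0.31, adjusted p = 2.23e-10). MSTRG.28702, at 126 ± 9.89 CPM at 0 h and 96.9 ± 29.97 at 24 h, did not pass the test (adjusted p = 0.0525, edgeR's quasi-likelihood test). It did pass, as lower, without 24 h replicate 1 (adjusted p = 0.000187), 0 h replicate 1 or 15 h replicate 3 (adjusted p = 0.0495 each), and with library size alone or no filter (adjusted p = 3.27e-05 and 0.0424).

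For genes of ABA reception and signalling, 9 of 21 members tested (of 23) were higher at each of 9, 15 and 24 h, and 7, 7 and 6 lower. That is 42.9% higher each time, where 27.1, 30.3 and 34.7% of all genes were, and 33.3, 33.3 and 28.6% lower, where 26.8, 29 and 39.1% of all genes were. Those that rose and had the most counts were phosphatases of group 2C, which in Arabidopsis hold back the ABA response and are themselves induced by ABA. MSTRG.2767 (highly ABA-induced PP2C gene 3) rose from 98.6 ± 4.44 to 499 ± 21.8, 497 ± 59.2 and 852 ± 38 CPM at 9, 15 and 24 h, or by 2.34, 2.33 and 3.11 on the log2 scale (SE 0.09 each). MSTRG.25516 (PP2C gene 2) rose by 1.36 and MSTRG.20010 (homology to ABI2) by 1.56 at 24 h (SE 0.08 and 0.09). A second gene described as PP2C gene 3, MSTRG.40750, rose from 2.6 ± 0.46 to 43.1 ± 7.89 CPM at 24 h.

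The list of factors that bind ABA or dehydration elements in promoters, matched by words, counted 30 tested members of 42. Of these, 15, 16 and 12 were higher and 6, 5 and 10 lower at 9, 15 and 24 h. At 9 and 15 h, 50 and 53.3% were higher, beside 27.1 and 30.3% of all genes. Lower were 20 and 16.7%, beside 26.8 and 29%. Against the 34.7% higher and 39.1% lower of all genes at 24 h, the shares of 40% and 33.3% of this list were close to the background. At 24 h the balance turned with library size as the only scaling, to 7 higher and 15 lower. The words also matched genes described as, for example, interacting or related to ABI3, so the whole list is mixed. After the data were seen the list was narrowed to leave such genes out, which kept 16 tested members. At 24 h, 56.25% of these were higher and 18.75% lower, with a median log2 fold change of 0.98, against 0.08 for the whole list. ABF2 (MSTRG.4643, ABA responsive elements-binding factor 2) had 79.9 ± 5.01 CPM at 0 h and 381 ± 11.1, 277 ± 8.33 and 327 ± 18 CPM at 9, 15 and 24 h, with log2 fold changes of 2.25, 1.80 and 2.03 (SE 0.07 each). ABF3 (MSTRG.44715) rose by 2.07 at 9 h and was higher by 1.11 at 24 h (SE 0.07 each). Both factors were thus highest at 9 h, the first time sampled after 0 h. Homeobox 7 (MSTRG.12355), a drought-responsive factor in Arabidopsis, was higher at 9 h by 1.59 (SE 0.14), and at 24 h it had 188 ± 46.5 CPM against 159 ± 13.8 at 0 h (adjusted p = 0.117, edgeR's quasi-likelihood test). That last difference passed the test as higher without 24 h replicate 2 (0.37, adjusted p = 0.0139) and with DESeq2's size factors (0.32, adjusted p = 0.0430), and as lower with library size alone (-0.43, adjusted p = 0.0065). Genes described as C-repeat-binding factor 4 split, as MSTRG.35406 fell by 4.96 at 24 h (SE 0.21) and MSTRG.28140 rose by 3.14 at 9 h and 2.42 at 24 h (SE 0.08 each).

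In the list named early responsive to dehydration and cold-regulated, of 28 members tested (of 32, with MSTRG.44799 among them), 10, 9 and 12 were higher and 9, 12 and 11 lower at 9, 15 and 24 h, with medians of -0.14, 0.01 and 0.03. These are 35.7, 32.1 and 42.9% higher and 32.1, 42.9 and 39.3% lower. Of all genes 27.1, 30.3 and 34.7% were higher and 26.8, 29 and 39.1% lower. The share lower at 15 h (42.9% against 29%) stood furthest from that of all genes. With library size alone 17 were lower at 24 h. Its most abundant member, ERD15 (MSTRG.16208), was lower at 9 and 15 h, by -0.45 and -1.16 (SE 0.10 each), and higher at 24 h by 0.26 (SE 0.10, adjusted p = 0.0332, edgeR). That rise was -0.41 with library size alone, and it missed the threshold without 0 h replicate 1 or 2 or 24 h replicate 1 or 3 (adjusted p = 0.0623 to 0.124). MSTRG.41444 and MSTRG.46558, described as early-responsive to dehydration, rose at 9 h by 0.60 (SE 0.07) and 1.25 (SE 0.08) and were lower than at 0 h at 15 h, by -1.74 (SE 0.07) and -0.75 (SE 0.08), the order also seen in MSTRG.44799. The cold-regulated membrane protein MSTRG.18489 had log2 fold changes of 2.01, 2.4 and 2.11 (SE 0.09 each).

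Sugars of the raffinose family accumulate beside dehydrins in drying seeds. The list of genes for sugars of the raffinose and trehalose families had 30 tested members of 33. Of these, 17, 18 and 19 were higher and 7, 8 and 10 lower at 9, 15 and 24 h, with medians of 1, 1.01 and 1.70. That is 56.7, 60 and 63.3% higher, beside 27.1, 30.3 and 34.7% of all genes. Lower were 23.3, 26.7 and 33.3%, beside 26.8, 29 and 39.1%. The 30 include 1 gene without a count at 0 h, which could not be called lower. The raffinose synthase genes MSTRG.45981 and MSTRG.36935 rose to 3246 ± 26.7 and 3137 ± 73.2 CPM at 24 h, from 397 ± 19.9 and 437 ± 5.37 at 0 h. Galactinol synthase makes the donor of their galactose, and its genes split, with MSTRG.42832 (galactinol synthase 2) rising by 8.59 (SE 0.18) and MSTRG.25287 (galactinol synthase 4) falling by 6.25 at 24 h (SE 0.10). Early light-induced and small heat shock proteins, which guard membranes and proteins under stress, had 12, 10 and 17 of 46 tested members (of 76) higher and 15, 10 and 15 lower. At 9, 15 and 24 h that is 26.1, 21.7 and 37% higher, beside 27.1, 30.3 and 34.7% of all genes. The shares lower were 32.6, 21.7 and 32.6%, beside 26.8, 29 and 39.1%. Library size alone gave 10 higher at 24 h and 16 lower at 15 h. Heat shock protein 21 (MSTRG.8425), a chaperone of the chloroplast, fell by 5 at 24 h (SE 0.19), and the HSP20-like gene MSTRG.9724 rose by 1.15 (SE 0.07). The tests are edgeR's, and all values in this paragraph given as rises or falls passed the adjusted threshold.

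**Figure D5:**
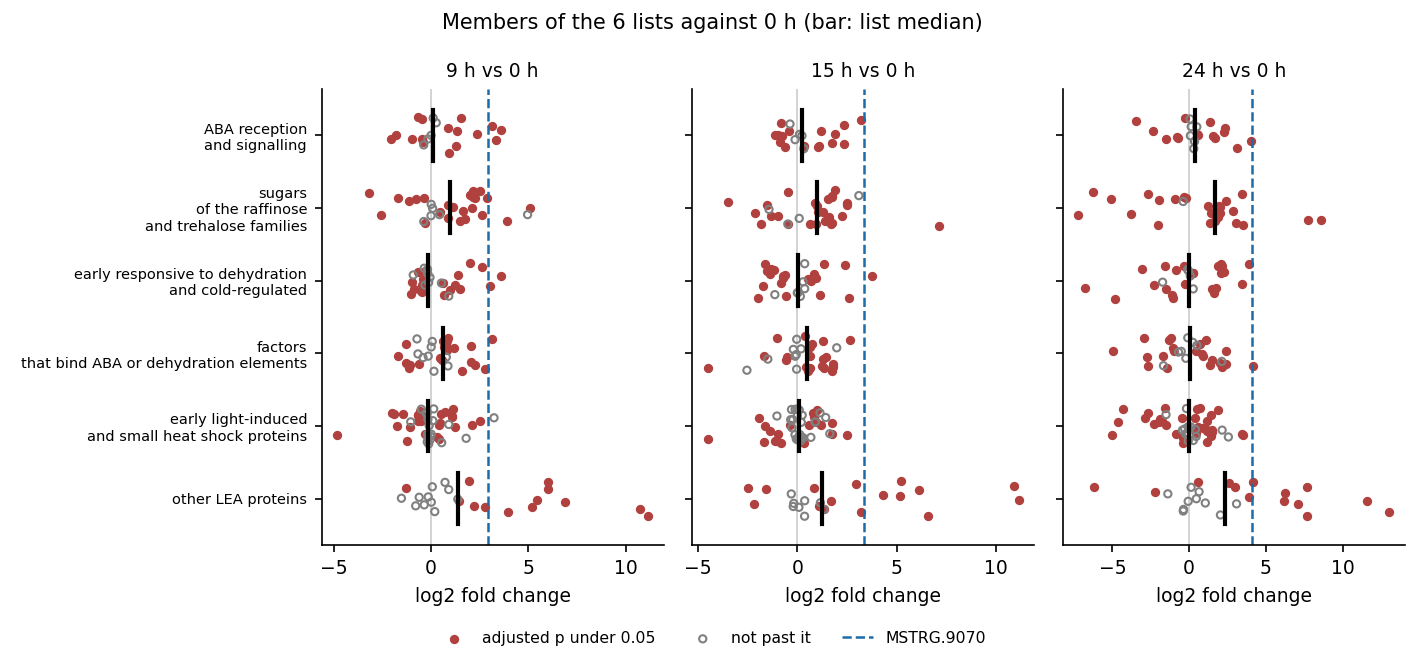
Log2 fold change against 0 h (edgeR, TMM) of each tested member of 6 gene lists at 9, 15 and 24 h, filled where the adjusted p was under 0.05, with the list median as a bar and the log2 ratio of MSTRG.9070 (2.91, 3.33 and 4.07) as a dashed line. Most members lie left of that line, and other LEA proteins are the list with members furthest to its right. Of the LEA members, 4 had no count at 0 h, so the size of their fold changes is not measured.

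Mesophyll, the green tissue of the leaf, was represented by 34 markers, which are rubisco small chains and chlorophyll-binding proteins. Of these 33 were detected, and together they held 2.14 to 3.03% of counts at 0 h, 0.487 to 0.704% at 9 h, 0.529 to 0.636% at 15 h and no more than 0.149 to 0.176% after 24 h. At 0 h, MSTRG.12209 alone held 1.55% of the mean of 2.69%. Of the 30 tested, 26 were lower and 4 higher at 24 h, so these markers cannot serve as a check of leaf identity over time. Markers of seeds, where dehydrins are also abundant, moved the other way. For a seed list narrowed after the data were seen to 20 genes of oleosins, caleosins, vicilins and seed storage albumins, of which 2 had no count in any library, the summed share was 0.0165 to 0.0177% at 0 h and 0.0727 to 0.110% at 24 h. Of the 16 tested, 12 were higher and 1 lower at 24 h, where 34.7 and 39.1% of all genes were. The 16 include 1 gene without a count at 0 h, which could not be called lower. The oleosin MSTRG.10261, a coat protein of oil bodies, had 118 ± 7.14 CPM at 0 h and 1107 ± 272 CPM at 24 h (SD, n = 3). The next most abundant member of the narrowed list, MSTRG.42924 (oleosin 1), had 7.45 and 53.3 CPM. The summed share of that list was thus mostly that of MSTRG.10261. The wider list of 203 seed words, most of them cupins and lipid-transfer proteins that leaves also make, went from 0.287 to 0.316% of counts at 0 h to 0.522 to 0.596% at 24 h, with 64 higher and 20 lower of 107 tested. The 107 include 6 genes without a count at 0 h. For the 5 pollen markers the range was 0.0196 to 0.0204% at 0 h and 0.0141 to 0.0152% at 24 h, and for the 3 root markers, 1 of them without a count in any library, 0.00221 to 0.00239% and 0.0174 to 0.0189%. Of the 5 pollen markers 3 were nevertheless higher and 1 lower at 24 h in the TMM-scaled test, with a median log2 fold change of 0.66, so the direction depends on the scaling. The root share was carried by 1 gene, as MSTRG.45986 rose from 11.8 to 233 CPM and MSTRG.20115 fell from 7.09 to 0.27 CPM at 24 h. The part of these tissues in the level of MSTRG.9070 was not tested.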

How the data were processed

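The deposited values are counts, whole numbers that the authors did not normalize, for each gene and each of 12 libraries of tea leaves. Tools in the submitters' processing notes are FastQC 0.10.1 and Trimmomatic, then HISAT2 2.0.5 with StringTie 1.3.1. How reads were assigned, with which strand setting and on which genome build, is not given in the sources used here. Libraries were tied to times by their labels. After filterByExpr and TMM scaling, the quasi-likelihood test of edgeR 4.0.16 (R 4.3.3) was fitted once to all 12 libraries with time as its factor. P-values were adjusted by Benjamini-Hochberg over 26712 genes, with a threshold of 0.05. Standard errors are the log2 fold change divided by the square root of F. Levels were computed in Python 3.11.15, with a prior count of 2 for log2 CPM. Gene lists were matched by words of the descriptions. Named from each list were the 3 members with the highest mean and the 2 with the largest change at 24 h among those with a mean of at least 10 CPM, beside the dehydrins, the 3 nearest genes on either side, the 5 genes with the most counts per time and the 10 most alike. Not each of these is printed. MSTRG.1298 carries only the description of an unknown protein. MSTRG.28140 was named from a narrowed list, and the genes most alike by distance by a measure tried as an alternative. The gene, the lists and the tests were chosen with earlier results of these data known. In a simulation of 9 h against 0 h with 26149 genes, the fit found 20 of 67 genes altered 1.5-fold, 49 of 67 for 2-fold and 63 of 66 for 4-fold. Only these genes were altered, up or down at random, whereas in the data 27.1% of genes were higher and 26.8% lower at 9 h. The simulation therefore does not show how the fit or its scaling fares with so many differences. Alternatives were DESeq2 1.42.0, other scalings and filters, single pairs of times, the replicate block and each library left out in turn.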

Additional observations from a re-analysis of the deposited data

How the results depend on the processing

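With library size as the only scaling, the log2 ratio of MSTRG.9070 to 0 h was 2.71, 3.04 and 3.40 at 9, 15 and 24 h, and with dehydrin counts as the denominator its share was 60.7, 74.3, 84.6 and 91.8% at 0, 9, 15 and 24 h. The number of other dehydrins higher between 9 and 15 h was 0 with library size alone, with the replicate block and at an adjusted p under 0.01, and 0 to 1 with single libraries left out, MSTRG.35303 being at few counts. Those lower between 15 and 24 h were 0 with DESeq2's size factors in edgeR and at an adjusted p under 0.01. With MSTRG.44799 counted as a dehydrin, 1 was lower at 15 h and 1 at 24 h than at 0 h, 2 were lower between 9 and 15 h, and 2 higher between 15 and 24 h. Other LEA proteins lower at 9 h were 2 with DESeq2, library size alone, a filter of 1 CPM in 3 libraries, only the times compared or the replicate block, and 1 to 2 with libraries left out. At 24 h they were 5 with library size alone, 1 with the CPM filter and 1 with only the times compared. Library size alone also gave 8 factors lower at 15 h and 7 higher at 24 h, 16 early light-induced and small heat shock genes lower at 15 h and 10 higher at 24 h, and 17 early responsive and cold-regulated genes lower at 24 h. Lists narrowed after seeing the data held 9 and 10 factors higher at 9 and 15 h, 3 lower at each of 9, 15 and 24 h, 6 early responsive genes lower at 24 h and 3 ABA signalling genes lower at 24 h. Library size alone also reversed the 24 h values of MSTRG.7807 (-0.057), MSTRG.12355 (-0.43) and MSTRG.16208 (-0.41). Of all alternative values, 1975 kept their direction and side of the threshold or, for shares, ratios and gene counts, stayed within the spread between libraries or within 1.5 times. The others were 50 that moved further, 13 that missed the threshold, 8 that newly passed it and 3 that reversed. The replicate numbers did not pair libraries, as the r of same-numbered deviations was -0.079 to 0.061 and 3 of 12 libraries correlated best with their own number. The depth limits MSTRG.35303 at 0 h, where 4 counts in all leave its ratios uncertain. It does not limit MSTRG.9070. The narrowed lists hold fewer genes and leave out some kinds of description. The cause of the differences was not tested for them or for the other settings.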
